A study of Mus musculus with 6 samples.

Results

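The genes described here encode the enzymes that make and degrade cyclic AMP (cAMP), the subunits and anchors of the kinase that cAMP activates, and 4 further cAMP effectors, in mGLUTag cells. They were taken by gene symbol: the adenylyl cyclases (Adcy), the phosphodiesterases (Pde), the catalytic and regulatory subunits of protein kinase A (PKA; Prkac and Prkar), the A-kinase anchoring proteins (Akap), and Rapgef3, Rapgef4, Creb1 and Atf1. In all, 125 probes of 55 genes fitted these symbols, out of 45281 probes and 30854 symbols on the array. mGLUTag is an immortalized murine line of enteroendocrine L-cells, the intestinal cells that secrete glucagon-like peptide-1 (GLP-1). Every culture was starved of serum, exposed to forskolin to synchronize the cells and put back into growing conditions, and total RNA was collected at 4 h (n = 3) and at 16 h (n = 3), the times that the study took as peak and trough of the clock gene Arntl. Each sample was hybridized to 1 Illumina mouse BeadChip array. There was no group without forskolin, so the values compare these time points and not treated with untreated cells. Neither the labels nor the methods state whether the samples of a time point came from separate cultures, so p-values measure only the spread between these samples, which may be technical.

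Adenylyl cyclases convert ATP to cAMP after a hormone receptor activates the stimulatory G protein, and forskolin activates most of the membrane-bound forms directly. cAMP releases the catalytic subunits of PKA from its regulatory subunits, activates the exchange factors EPAC1 and EPAC2 (Rapgef3 and Rapgef4), and leads to phosphorylation of the transcription factor CREB, while phosphodiesterases end the signal and anchoring proteins hold PKA near its substrates. In L-cells, cAMP promotes the release of GLP-1. The symbol rule also took in genes outside this description: Pde5a, Pde6a, Pde6b, Pde6c and Pde9a act on cyclic GMP, and Pde6d encodes a chaperone of prenylated proteins rather than an enzyme.

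The deposited intensities had been background-subtracted but not normalized between arrays, and the arrays differed. Mean intensity lay between 291.3 and 353.9 at 4 h and between 216 and 245.6 at 16 h. A noise limit was therefore set on each array from its own values below 0 (9.2 to 14 intensity units), and 16964 to 17847 probes of an array lay above it. The probes for 18S ribosomal RNA were brighter in replicates 1 and 3 at 4 h and in replicate 1 at 16 h than on the other 3 arrays. The first principal component, with 36% of the variance, also separated those arrays. Of the L-cell and enteroendocrine markers, 6 of 8 were above the limit on all arrays, against 0 of 3 enterocyte, 1 of 4 goblet and Paneth (Tff3), 1 of 4 fibroblast (Col1a1) and 0 of 4 leukocyte markers with a probe. Of the L-cell markers, Pcsk1 was above the limit on 1 array and Pax6 on 4.

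To establish which paralogs these cells expressed, a gene was called expressed where at least 1 of its probes exceeded the noise limit of every array. By this criterion 26 of the 55 genes were expressed (47.3%, against 35.2% of the 30854 symbols on the array), 6 were above the limit on 1 to 5 arrays, and 23 on none. The count of 26 was the same when the limit was set at the 95th instead of the 99th percentile. Among the 125 probes, 37 were above the limit on all arrays (against 14941 of the 45281 probes on the array), 16 on some and 72 on none. Over probes the share was thus lower for the members than for the array, whereas over genes it was higher. A gene with more probes has more chances to meet the criterion. The members had 125 probes for 55 genes, against 45281 for 30854 symbols on the array. A probe that stays at background does not show that the transcript is absent, since a probe may hybridize poorly or lie outside the isoform that a cell makes.

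Of the 10 adenylyl cyclases, 4 were expressed (40.0%): the calcium-stimulated Adcy1, and Adcy2, Adcy6 and Adcy9. The other 6 (Adcy3, Adcy4, Adcy5, Adcy7, Adcy8 and the soluble, bicarbonate-activated Adcy10) were above the limit on no array. Of the 21 phosphodiesterases, 6 were expressed (28.6%). These were the calcium/calmodulin-dependent Pde1a and Pde1b, the cyclic GMP-stimulated Pde2a, the cAMP-specific Pde4d, the dual-specificity Pde10a, and Pde6d. Pde1c and Pde7a reached the limit on 3 arrays and Pde4b on 2. The remaining 12, among them Pde3a and Pde3b, the cyclic GMP-inhibited forms, and all of the cyclic GMP-specific Pde5a, Pde6a, Pde6b, Pde6c and Pde9a, reached it on no array.

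Both catalytic subunits of PKA, Prkaca and Prkacb, were expressed, as were 3 of the 4 regulatory subunits, Prkar1a, Prkar1b and Prkar2b. Both probes for the fourth, Prkar2a, stayed below the limit on every array, with intensities between -12.8 and 4.1. Of the 14 anchoring proteins, 9 were expressed: Akap1, which tethers PKA to the outer mitochondrial membrane, Akap2, Akap7, the nuclear Akap8 and its relative Akap8l, the centrosomal and Golgi scaffold Akap9, Akap10, Akap11 and the plasma membrane scaffold Akap12. Akap6, the anchor of the nuclear envelope in muscle, was above the limit on 5 arrays and Akap3 on 1, while Akap4, Akap13 and Akap14 were above it on none. EPAC2 (Rapgef4) was expressed and EPAC1 (Rapgef3) was not above the limit, with intensities between -3.2 and 1.6. Creb1 was expressed through 1 of its 6 probes, and its close relative Atf1 was above the limit on 1 array.

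**Figure D1:**
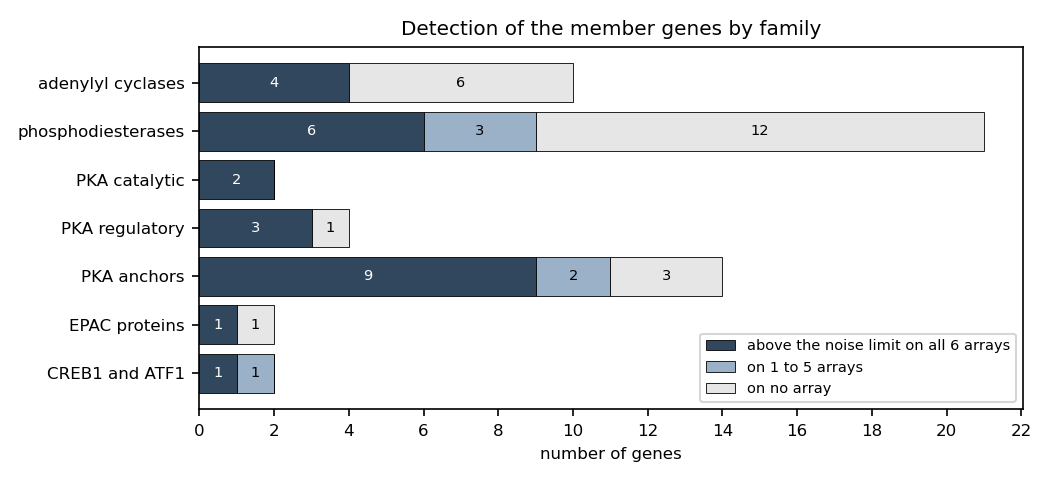
Number of genes (horizontal axis) in each family whose best probe exceeded the noise limit on all 6 arrays, on 1 to 5 arrays, or on no array. Of the 21 phosphodiesterases 6 were expressed and 12 reached the limit on no array, while both catalytic subunits and 9 of 14 anchors were expressed.

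**Figure D2:**
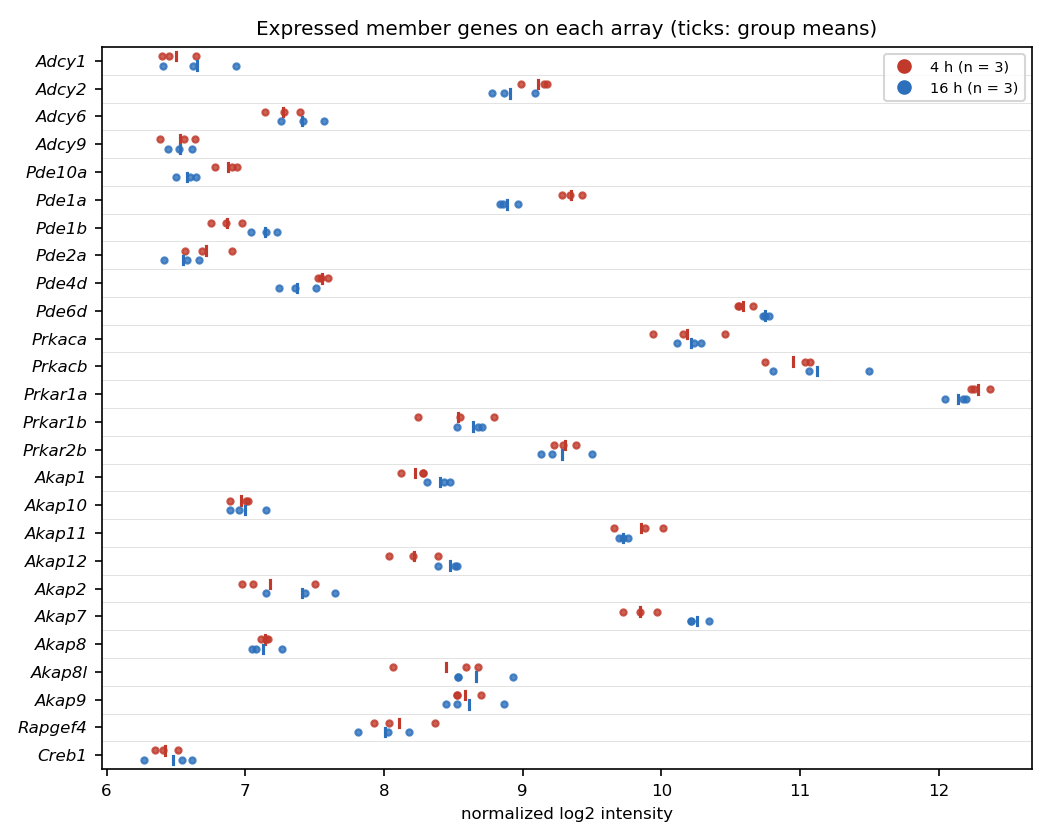
Normalized log2 intensity (horizontal axis) of the 26 expressed genes on each array at 4 h and at 16 h, with 1 probe for each gene. Points are arrays and ticks are group means. Brightness cannot be compared between genes, since probes differ in how well they hybridize. The 3 arrays at 4 h lie apart from those at 16 h for 8 of the genes.

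Forskolin raises cAMP and so activates CREB, which binds the cAMP response element (CRE), and the time points were chosen by the clock factor encoded by Arntl, which binds E-boxes. The 250 bases before each start site in RefSeq (GRCm38.p6) were therefore searched on both strands for the full CRE (TGACGTCA), its core (TGACG, which the full CRE contains) and the E-box (CACGTG). Start sites were found for 45 of the 55 genes, with 87 windows. The full CRE was present in 1 of the 87 windows (1.15%, against 1.55% of all windows of this length), that of Prkar1a. The core was in 14 windows (16.1%, against 17.8% of all), and the E-box in 9 (10.3%, against 6.02% of all), from Adcy1, Akap7, Akap10, Akap11, Atf1, Prkaca, Prkar1a, Prkar1b and Prkar2b. Of the 23 expressed genes with a window, 8 had an E-box (34.8%, against 10.4% of 5812 expressed genes with a window) and 7 a CRE core (30.4%, against 32.8%). Windows covered 23 of the 26 expressed members but only 5812 of all 10869 expressed genes, so the genes compared were unlike in coverage. A gene was counted if any of its windows held the motif, and members had more windows for each gene (87 for 45 genes, against 32851 for 27025). A match describes the letters only and does not show binding. The windows given are that with the full CRE, and one each of Pde1a and Akap7, whose normalized intensities differed most between the time points among the expressed members. Pde1a had 4 windows and Akap7 had 2, and the window shown for each was picked because it held a motif. Motifs are in capitals and each sequence runs 5′ to 3′ on the strand of its gene. The first is Prkar1a at chr11:109650699-109650948 on the plus strand, where the full CRE begins 49 bases before the start site. The second is Pde1a at chr2:80038903-80039152 on the minus strand, with a core read on the opposite strand. The third is Akap7 at chr10:25200150-25200399 on the minus strand, with an E-box that begins 156 bases before the start site.
Prkar1a: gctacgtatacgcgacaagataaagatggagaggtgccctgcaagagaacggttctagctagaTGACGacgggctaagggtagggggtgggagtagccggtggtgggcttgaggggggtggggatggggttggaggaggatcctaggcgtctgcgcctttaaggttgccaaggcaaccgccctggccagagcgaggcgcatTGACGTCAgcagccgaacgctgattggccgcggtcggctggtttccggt
Pde1a: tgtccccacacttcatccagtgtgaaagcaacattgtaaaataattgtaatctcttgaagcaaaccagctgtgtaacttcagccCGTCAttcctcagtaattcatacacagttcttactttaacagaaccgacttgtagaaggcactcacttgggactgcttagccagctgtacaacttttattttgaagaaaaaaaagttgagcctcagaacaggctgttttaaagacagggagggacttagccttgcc
Akap7: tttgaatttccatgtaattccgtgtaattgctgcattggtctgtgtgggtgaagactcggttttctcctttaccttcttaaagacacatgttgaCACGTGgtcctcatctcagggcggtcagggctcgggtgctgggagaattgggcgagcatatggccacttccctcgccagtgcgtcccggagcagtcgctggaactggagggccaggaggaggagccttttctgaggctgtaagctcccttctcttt

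To determine whether the cAMP genes differed between the time points, normalized log2 intensities were compared by limma with Benjamini-Hochberg adjustment over all 45281 probes, and log2 differences are 4 h minus 16 h. None of the 125 probes passed the threshold of 0.05, and the smallest limma adjusted p was 0.171. Over the whole array 2 probes passed with higher (0.00442%) and 2 with lower intensity at 4 h (0.00442%), together 0.00883% of all probes, so that 0 of 125 does not stand apart from the rest of the array. At an unadjusted p under 0.05, 2 of the 26 expressed genes were higher at 4 h (7.69%, against 6.04% of all 10869 expressed genes) and 5 were lower (19.2%, against 5.50%). The number of lower genes was 2 with an offset of 16, with trend and robust variance, without replicate 1 of 4 h and without replicate 2 of 16 h. It was 3 without replicate 2 of 4 h (Akap2 among them), with the 18S split as a block, with either filter on dim probes and without background correction. With median scaling, which corrects the brighter 4 h arrays only in part, 11 were higher and 0 lower, and without between-array normalization 14 and 0. Pde1a and Pde10a were among the higher genes in each of these settings, and Pde1b and Akap7 among the lower in each but the last 2. There was no overlap between time points for 4 genes with higher values at 4 h (15.4%, against 6.55%) and 4 with lower values (15.4%, against 5.80%). The 95% intervals of the changes reached a median of 0.22 to either side on the log2 scale (0.15 to 0.38). These intervals are not adjusted for the number of probes, and with 3 arrays against 3 the adjusted threshold was missed even by a difference of 0.47.

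The 26 expressed members lay in both directions. Of the 26 expressed genes, 10 had higher and 16 lower mean values at 4 h, with a median log2 difference of -0.027, against 5412 higher and 5457 lower and a median of -0.001 among all expressed genes. The median size of the change, regardless of sign, was 0.16 for the members and 0.09 for all expressed genes. The families differed in their counts. Among the 6 expressed phosphodiesterases, 4 were higher and 2 lower (median 0.17), and among the 9 anchors, 2 were higher and 7 lower (median -0.18). The 4 cyclases had 1 higher and 3 lower (median -0.07) and the 5 PKA subunits 2 higher and 3 lower (median -0.03). The difference between families was not tested. The anchors had a median of -0.09 with the 18S split as a block and without replicate 3 of 4 h, and -0.11 without replicate 3 of 16 h. With median scaling it was also -0.11, but relative to the shift shared by the detected probes (their median difference of 0.30). The phosphodiesterases ranged from 0.10 with median scaling, relative to the same shift, to 0.37 without background correction. Without replicate 1 of 4 h the members divided into 13 higher and 13 lower, with a median of -0.004, and without replicate 3 of 4 h into 8 and 18, with a median of -0.046. The lowest median on leaving out an array, -0.08, was that without replicate 3 of 16 h. Of the 8 genes with more than 1 expressed probe, 6 had all of those probes in one direction.

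**Figure D3:**
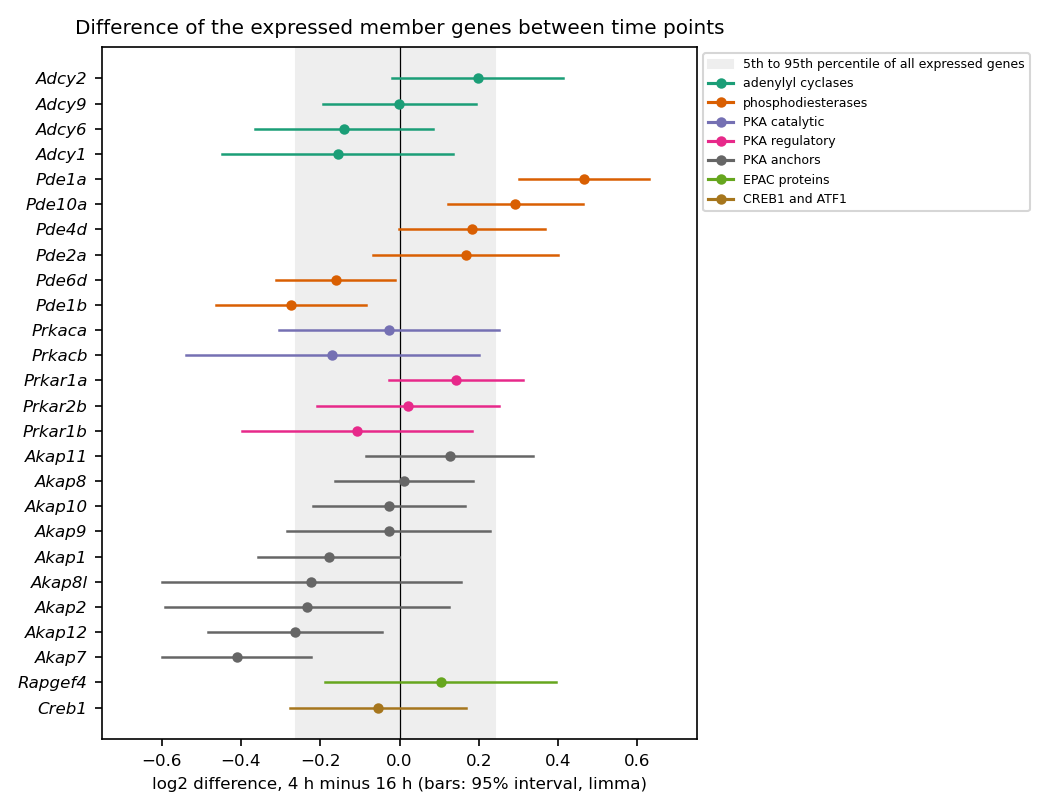
Log2 change (4 h minus 16 h, horizontal axis) of each expressed gene with its 95% interval from limma (n = 3 arrays for each time point). The grey band spans the 5th to 95th percentile of all expressed genes (-0.26 to 0.24). Pde1a and Pde10a lie above the band, and Akap7, Pde1b and Akap12 below it.

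The largest difference among the phosphodiesterases was that of Pde1a, a calcium/calmodulin-dependent enzyme that hydrolyzes both cAMP and cyclic GMP. Its deposited intensity (probe ILMN_2717749) was 795.7, 574.4 and 728.2 in replicates 1 to 3 at 4 h, and 368.0, 353.3 and 277.3 at 16 h. On the normalized log2 scale these were 9.43, 9.29 and 9.34 against 8.96, 8.86 and 8.84. All 3 arrays at 4 h thus lay above all 3 at 16 h on both scales. The log2 difference was 0.47 ± 0.072 (SE; 95% interval 0.30 to 0.63), which placed Pde1a 60th of 10869 expressed genes from the top, but the limma adjusted p was 0.171. Of its 4 probes, 3 were expressed, and the others gave 0.45 (ILMN_2754377, limma adjusted p = 0.199) and 0.39 (ILMN_3146952, limma adjusted p = 0.558). The direction was thus shared by all 3 expressed probes, although probes of 1 gene are read from the same RNA and are not replicates.

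The values of Pde1b, the paralog with the same cofactor, lay the other way. Its normalized log2 intensity (ILMN_2730293) was 6.76, 6.98 and 6.86 at 4 h against 7.04, 7.23 and 7.15 at 16 h. The log2 difference was -0.27 ± 0.083 (SE; limma adjusted p = 0.706), and its other expressed probe gave -0.19 (limma adjusted p = 0.917). Without background correction it was -0.54. For the first probe all arrays at 4 h lay below those at 16 h, but this difference appeared only after normalization. Its deposited intensity was 64.2 ± 3.45 (SD) at 4 h and 62.9 ± 10.3 at 16 h, while most probes were brighter at 4 h. The difference between the Pde1a and Pde1b probes within an array, a pair chosen after the values had been seen, was 2.67, 2.31 and 2.48 on the log2 scale at 4 h and 1.92, 1.63 and 1.69 at 16 h, a shift of 0.74. Pde1c had 1 of its 6 probes above the limit on 3 arrays, all at 4 h (25.7, 19.5 and 22.2, against 5.2, 9.5 and 8 at 16 h). It met the criterion for a change only through the time point in which it was brighter, so no difference is given. Pde7a, above the limit on 3 arrays of both time points, had a log2 difference of -0.12 (limma adjusted p = 0.959).

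**Figure D4:**
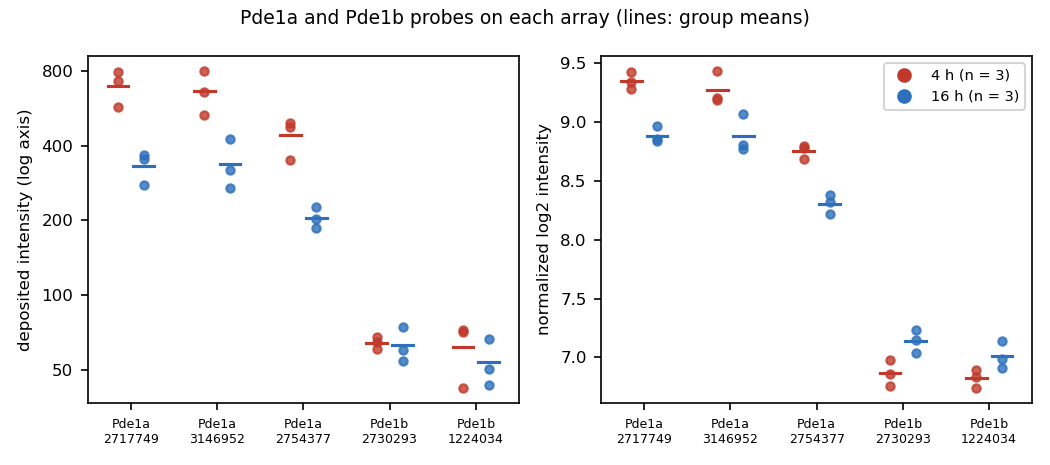
Deposited intensity (left, log axis) and normalized log2 intensity (right) of the 3 expressed Pde1a probes and the 2 expressed Pde1b probes, labelled by probe number. Points are arrays (n = 3 for each time point) and lines are group means. The Pde1a probes are brighter at 4 h on both scales, whereas for the first Pde1b probe the means are 64.2 and 62.9 before normalization.

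Pde10a, which hydrolyzes both cyclic nucleotides and is abundant in the striatum, had normalized values of 6.78, 6.91 and 6.94 at 4 h against 6.65, 6.60 and 6.50 at 16 h. Its time points did not overlap, and the log2 difference was 0.29 ± 0.075 (SE; limma adjusted p = 0.539), the 304th of the expressed genes. It was a dim probe, with deposited means of 65.97 ± 10.6 (SD) and 27 ± 7.06. The size of its difference depended on the processing, at 0.72 without background correction, 0.17 with median scaling, relative to the shift shared by the detected probes (their median difference of 0.30), and 0.13 with the mean of its probes. The other probe in that mean was above the limit on no array. Pde4d, a cAMP-specific enzyme whose transcription is known to respond to cAMP, had normalized values of 7.52, 7.55 and 7.60 at 4 h against 7.51, 7.24 and 7.36 at 16 h. The groups were separated only narrowly, by replicate 1 at 16 h, and the log2 difference was 0.18 (limma adjusted p = 0.919), which was 0.12 without replicate 2 of 16 h, 0.29 without background correction and 0.09 with the mean of its probes. Pde2a overlapped between the time points, with 6.57, 6.69 and 6.90 against 6.41, 6.67 and 6.58 and a log2 difference of 0.17 ± 0.10 (SE; limma adjusted p = 0.942), which was 0.07 without replicate 3 of 4 h, 0.10 without replicate 1 of 16 h, 0.04 relative to the shared shift with median scaling or no between-array normalization, and 0.45 without background correction. The chaperone gene Pde6d had 10.55, 10.56 and 10.66 at 4 h against 10.73, 10.74 and 10.77 at 16 h. Its groups did not overlap and the log2 difference was -0.16 ± 0.066 (SE; limma adjusted p = 0.892), with its 3 other expressed probes at -0.37, -0.24 and -0.22. The deposited intensities were separated the other way, at 1798.2, 1521.4 and 1898 against 1402.8, 1471.9 and 1244.9, so that Pde6d was brighter at 4 h, but by less than most probes. Relative to the shared shift, the difference was -0.06 with median scaling or no between-array normalization, and it was -0.25 with the mean of its probes.

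Among the anchors, Akap7, whose products hold PKA at the plasma membrane and near ion channels, had the largest difference. Its normalized log2 intensity (ILMN_2944413) was 9.97, 9.85 and 9.72 at 4 h against 10.34, 10.21 and 10.21 at 16 h. All arrays at 4 h lay below those at 16 h, and the log2 difference was -0.41 ± 0.083 (SE; 95% interval -0.60 to -0.22; limma adjusted p = 0.338), the 111th lowest of the expressed genes. The deposited intensities, 1013 ± 151 (SD) at 4 h and 957 ± 125 at 16 h, did not show this difference, so that Akap7 was lower at 4 h relative to the other probes of its array and not in brightness. Its 3 other probes were above the noise limit on at most 1 array, and the mean of all its probes gave -0.13.

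Akap12, a scaffold that brings PKA and protein kinase C to the plasma membrane, had normalized values of 8.04, 8.21 and 8.39 at 4 h against 8.51, 8.53 and 8.39 at 16 h. Replicate 3 met at 8.39 at both time points, and the log2 difference was -0.26 ± 0.097 (SE; limma adjusted p = 0.831). Akap1 had 8.12, 8.28 and 8.28 against 8.31, 8.43 and 8.48, without overlap, and a log2 difference of -0.18 ± 0.078 (SE; limma adjusted p = 0.919). Its other expressed probe gave -0.13. Before normalization both were brighter at 4 h on average, Akap12 at 281.4 ± 60.3 (SD) against 239.2 ± 44.4 and Akap1 at 282.5 ± 33.6 against 223 ± 22.3. With the mean of all probes of the gene the differences were -0.10 and -0.02. That mean takes in probes at background, since 1 of the 3 Akap12 probes and 2 of the 7 Akap1 probes were expressed. Relative to the shared shift Akap1 was -0.11 with median scaling. Akap2 was variable within each time point, with 6.97, 7.50 and 7.06 at 4 h against 7.15, 7.43 and 7.65 at 16 h, and a log2 difference of -0.23 ± 0.16 (SE; limma adjusted p = 0.948). Its difference was -0.11 without replicate 3 of 16 h, -0.13 without replicate 1 of 4 h, -0.39 without replicate 2 of 4 h, -0.37 without replicate 1 of 16 h and -0.06 with the mean of its probes. The remaining 5 anchors, Akap8, Akap8l, Akap9, Akap10 and Akap11, had changes between -0.22 and 0.13, and the expressed probes of Akap9 and Akap10 differed in direction. Akap6, above the limit on 5 arrays and so outside these counts, had deposited intensities of 38.7, 18.8 and 36.5 at 4 h against 15.6, 8.2 and 14.2 at 16 h and a log2 difference of 0.17 (limma adjusted p = 0.919).

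Of the cyclases, Adcy2 had normalized values of 8.99, 9.16 and 9.17 at 4 h against 8.86, 9.09 and 8.78 at 16 h. These overlapped, since replicate 2 at 16 h lay above replicate 1 at 4 h, and the log2 difference was 0.20 ± 0.095 (SE; limma adjusted p = 0.919). The 3 other expressed cyclases, Adcy1, Adcy6 and Adcy9, had changes between -0.16 and -0.0003. No cyclase reached an unadjusted p under 0.05 in the fit reported. Adcy2 did without replicate 1 of 4 h, without replicate 2 of 16 h, with median scaling and without between-array normalization, Adcy9 in the last of these, and Adcy1 without replicate 3 of 16 h.

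The catalytic subunits of PKA had no consistent order between the time points. Prkaca had 10.15, 9.94 and 10.46 at 4 h against 10.28, 10.24 and 10.11 at 16 h, a log2 difference of -0.03 ± 0.12 (SE; limma adjusted p = 0.994). Prkacb had 11.04, 10.74 and 11.07 against 10.81, 11.49 and 11.06, a log2 difference of -0.17 ± 0.16 (SE; limma adjusted p = 0.962), which turned to 0.0171 without replicate 2 of 16 h and was -0.32 without replicate 1 of 16 h. Prkaca turned to 0.0954 without replicate 2 of 4 h and to 0.01 without replicate 1 of 16 h, and was -0.17 without replicate 3 of 4 h. Prkar1a, the type I regulatory subunit that holds the kinase inactive in the absence of cAMP, was separated between the time points. Its deposited intensities were 6027.0, 5037.5 and 5894.4 at 4 h against 4076.8, 3978.3 and 3204.7 at 16 h. The normalized values were 12.25, 12.23 and 12.37 against 12.20, 12.18 and 12.04. After normalization the log2 difference was 0.14 ± 0.075 (SE; limma adjusted p = 0.922), so that most of the difference in deposited intensity was shared with the other probes. It was 0.06 with linear scaling on detected probes and 0.0955 without replicate 3 of 16 h. Prkar1b and Prkar2b had changes of -0.11 and 0.02.

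For the other effectors, Rapgef4 had normalized values of 8.04, 7.93 and 8.37 at 4 h against 8.18, 7.81 and 8.03 at 16 h, which overlapped, with a log2 difference of 0.10 ± 0.13 (SE; limma adjusted p = 0.969). It turned to -0.024 without replicate 3 of 4 h, and was 0.0065 without replicate 2 of 16 h and 0.19 without replicate 2 of 4 h. Creb1 had 6.35, 6.52 and 6.40 against 6.55, 6.27 and 6.62, also overlapping, with a log2 difference of -0.05 ± 0.098 (SE; limma adjusted p = 0.980). This difference turned to 0.0155 without replicate 3 of 16 h, and was -0.16 without replicate 2 of 16 h. It was -0.135 without background correction, and -0.24 relative to the shared shift with median scaling or no between-array normalization. A second Creb1 probe (ILMN_3120454), above the limit on 5 arrays, lay the other way, with deposited intensities of 20.8, 20.6 and 19.2 at 4 h against 10.9, 10.9 and 6.8 at 16 h and a log2 difference of 0.12 (limma adjusted p = 0.924). Transcript levels do not report on CREB activity, which is controlled by phosphorylation.

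The same fit was read for other genes of the pathway. Of 37 genes for G protein subunits, receptors, PKA inhibitors, coactivators and further effectors, 31 had a probe, 21 were expressed, and 10 were higher and 11 lower at 4 h, with none passing the threshold. Pkib, which encodes a PKA inhibitor, had the highest change (0.34 ± 0.105, SE; limma adjusted p = 0.706). Its 3 other expressed probes gave 0.34, 0.52 and 0.72 (limma adjusted p = 0.919, 0.338 and 0.232). The study lists Pkib, as well as Id1, among the genes significantly higher at 4 h, both with larger changes than in this fit. For Pkib the fit reported here thus differs from the study. Gnas, which encodes the stimulatory G protein, had -0.10, and Rap1b, a substrate of EPAC, had 0.20. Of 12 transcripts known to respond to cAMP, 11 had a probe and 7 were expressed, 3 with higher and 4 with lower values at 4 h. One of these passed: Id1, an inhibitor of basic helix-loop-helix factors, which was higher at 4 h than at 16 h by 0.76 ± 0.074 on the log2 scale (SE; limma adjusted p = 0.0338). Over the whole array 2 of 45281 probes passed as higher (0.00442%), and the list was drawn up with earlier results of these data known, so this call does not single out the list. The call did not hold with the replicate block, an offset of 16, either filter on dim probes or the removal of any 1 array, in each of which 0 probes of the array passed, nor with cyclic loess, in which 0 passed as higher. The immediate early gene Fos had -0.01, Nr4a2 had -0.23 and the clock gene Per1 had -0.30, and none of these passed. Pde4d and Pde10a are members of this list as well.

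Because the arrays with brighter 18S probes were not evenly divided between the time points, the change was also computed within the 3 arrays with brighter and the 3 with dimmer 18S probes. The sizes were 0.42 and 0.44 for Pde1a, 0.21 and 0.35 for Pde10a, -0.23 and -0.21 for Pde1b, and -0.50 and -0.36 for Akap7. They were -0.13 and -0.20 for Pde6d, 0.11 and 0.12 for Prkar1a, 0.05 and 0.24 for Pde4d, and -0.11 and -0.17 for Akap1. The shared sign of each of these genes carries no information on the 18S split, because their time points did not overlap and any such division gives the same sign. Akap12, whose time points met, had -0.30 and -0.25. Each of these values rests on 1 array against 2. Of the 26 members 7 had opposite signs, all of them with overlapping time points: Prkaca, Prkacb, Prkar2b, Akap9, Akap10, Akap11 and Creb1. The values were 0.25 and -0.53 for Prkacb, 0.02 and -0.23 for Prkaca, and -0.17 and 0.07 for Creb1. Prkaca was -0.11 with the 18S split as a block. Without overlap between the arrays of brighter and dimmer 18S probes were 2 of the 26 members (7.69%, against 18.6% of all expressed genes), Akap2 (-0.44 on the arrays with brighter 18S probes relative to the others) and Rapgef4 (0.27). With the 18S split as a block, an alternative chosen after the data had been seen, the log2 difference between the time points went from -0.23 to -0.09 for Akap2 and from 0.10 to 0.015 for Rapgef4. Within the brighter and the dimmer arrays it was -0.14 and -0.04 for Akap2, and 0.02 and 0.01 for Rapgef4.

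**Figure D5:**
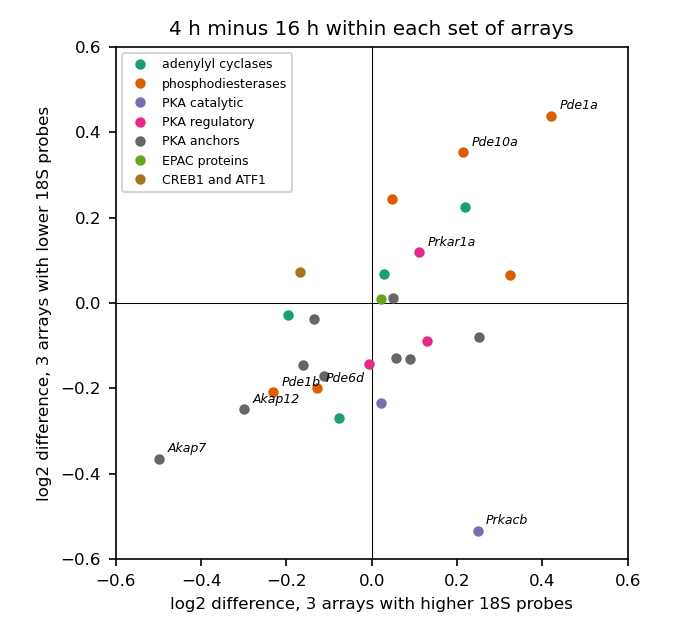
Log2 change (4 h minus 16 h) of each expressed member within the 3 arrays with brighter 18S probes (horizontal axis) and within the 3 with dimmer 18S probes (vertical axis), coloured by family. Each axis compares 1 array with 2. Pde1a is at 0.42 and 0.44 and Akap7 at -0.50 and -0.36, with signs fixed by the lack of overlap between their time points, while Prkacb is at 0.25 and -0.53.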

How the data were processed

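RNA from 6 samples of forskolin-synchronized mGLUTag cells (4 h and 16 h, n = 3 each) was measured on mouse Illumina BeadChip arrays. The authors deposited 1 linear intensity per probe and array, background-subtracted but not normalized between arrays. The table has no detection p-values. Scanner settings, the slide of each array and the genome build behind the probes are not given in the sources used here. Samples were grouped by the time point of their labels.

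Background was modelled by normexp (offset 50), after which the values were quantile normalized, taken to log2 and fitted in limma 3.58.1 (R 4.3.3) by lmFit and eBayes, with time as the only term. Two-sided tests over 45281 probes received Benjamini-Hochberg adjustment (threshold 0.05). The offset shrinks the changes of dim probes, and quantile normalization makes each change relative to the other probes of its array. The noise limit of an array was the 99th percentile of the size of its negative values. No change was given for probes above it on fewer than 3 arrays, counts of genes cover those above it on all 6, and the brightest probe on average stood for each gene. Named genes were Prkaca, Prkar1a, Rapgef4, Creb1, the brightest gene of each family and the 6 genes with the smallest p in each direction. The number of arrays, 3 in each group, limits precision.

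Symbols were matched to RefSeq (GRCm38.p6): 54 of 55 were found, the exception being Akap2. A further 6 probes carry older names of these genes and were left out, none of them above the limit on more than 2 arrays. Alternatives covered background correction, normalization, filters, variance model, array weights, a replicate block, leaving out each array and the choice of probe. The mean of the probes of a gene takes in all of them, also those that stayed at background. The members and gene lists were chosen with earlier results of these data known. The 18S split was added as a block after the data had been seen.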

Additional observations from a re-analysis of the deposited data

How the results depend on the processing

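The number of member probes called was 0 in every alternative but median scaling (3) and no between-array normalization (8), in which all called members were higher at 4 h. The first corrects the brighter 4 h arrays in part and the second not at all, with a shared shift of detected probes of 0.30 and 0.39 on the log2 scale. Changes of named genes and medians of members and families under them are given relative to it, whereas counts at a p threshold are as fitted. Over all probes 4 were called. The number was 29 without background correction, 0 with an offset of 16, 832 with median scaling, 2 with cyclic loess and 2308 without between-array normalization. It was 0 with a filter above the median probe, 0 with a filter at the noise limit, 1 with trend and robust variance, and 0 to 0 when each array was left out. Unadjusted p-values under 0.05 numbered 2456 in the limma fit reported, 2486 with the offset of 16, 1321 and 1028 with the filters, and 1849 to 3219 when an array was left out.

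With the replicate block the number called over all probes was 0 (2489 at an unadjusted p under 0.05) and that of members 0. Deviations of same-numbered samples correlated at 0.25, 0.173 and -0.493, so the numbers were not taken to pair the samples.

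The median change of the expressed members was -0.08 to -0.004 when an array was left out. Of 16 named genes, 12 kept their direction in every alternative run. These 12 were the genes named for the smallest p in each direction of the fit reported. The count thus reflects how they were chosen and is no separate support for their direction. Each of the other named genes, Prkaca, Prkacb, Rapgef4 and Creb1, changed direction in at least 1 alternative. Prkaca was 0.0641 with median scaling and without between-array normalization, and -0.1659 to 0.0954 when an array was left out. Leaving out an array gave -0.3246 to 0.0171 for Prkacb, -0.024 to 0.1934 for Rapgef4 and -0.1603 to 0.0155 for Creb1. With the mean of its probes Creb1 was 0.0022. It was -0.135 without background correction, and -0.2413 with median scaling and without between-array normalization. Pde1a lay between 0.33 and 0.56 and Akap7 between -0.47 and -0.13 over all alternatives. With the 18S split as a block, an alternative chosen after seeing the data, no member was called. Slide and scan date could not be examined.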
